A study of Mus musculus with 12 samples.

Results

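Expression of 6 genes of the mouse brain, Spock3, Osbpl8, Trim23, Arl15, Plppr5 and Serpini1, is described across the 4 groups of the study. They were selected on the counts of these same libraries, which were lower after prenatal valproic acid in Notch conditional knockout forebrain, and for several of them in wildtype forebrain too. They are 6 of the 56748 genes in the deposited count table, and all 6 were among the 17995 genes with enough counts to be tested. Since those counts chose them, their levels after valproic acid are a description, and counts of them past a threshold in those comparisons only restate the choice. The comparisons of genotype were not named in the choice and are given with their p-values, but all 4 groups entered the choice, so these values are not independent of it.

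RNA sequencing was done on 12 libraries of adult forebrain, 3 in each of 4 groups. The unexposed groups were wildtype (WT) and a conditional knockout whose genotype is labelled htr3a Notch KO (htr), and each genotype was also studied with prenatal exposure to valproic acid (WT_V and htr_V). This antiepileptic drug inhibits histone deacetylases, and its use in pregnancy is modelled in rodents as a risk for autism. The sources used here do not give the Notch gene deleted, the driver of the deletion, the strain, the sex, the exact age, the dose or the day of exposure. Nothing in the labels ties a library to an animal of its own, and p-values therefore measure only the spread between these libraries, which may be technical. Levels are CPM, a gene's counts scaled to a common library size adjusted by TMM factors, and fold changes are on the log2 scale with a standard error (SE) from a model fitted to all genes.

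The products of the 6 genes work outside the cell, at its membrane and on its internal membrane traffic. Spock3 encodes testican-3, a secreted proteoglycan of the brain's extracellular matrix, and Serpini1 encodes neuroserpin, a protease inhibitor that neurons secrete and that blocks tissue plasminogen activator. Plppr5 encodes a membrane protein related to the lipid phosphate phosphatases that promotes the outgrowth of neurites. Osbpl8 encodes ORP8, which exchanges lipids between the endoplasmic reticulum and the plasma membrane where the membranes touch. Trim23 and Arl15 both belong to the ARF family of small GTPases, switches that control vesicle traffic: Trim23 joins a GTPase domain to a ubiquitin ligase and takes part in autophagy, and Arl15 is an ARF-like GTPase linked to magnesium transport by the CNNM proteins.

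The genes lie on 4 chromosomes: Spock3 (ENSMUSG00000054162) on chromosome 8, Osbpl8 (ENSMUSG00000020189) on 10, Trim23 (ENSMUSG00000021712) and Arl15 (ENSMUSG00000042348) on 13, and Plppr5 (ENSMUSG00000033342) and Serpini1 (ENSMUSG00000027834) on 3. All are annotated as protein-coding. A 300-base promoter window, from 250 bases before to 50 after a RefSeq start, was found for all 6 in the build GRCm38.p6. Of these, 3 stretches before the first annotated start are shown, all on the plus strand. Osbpl8 and Trim23 were lower after exposure in both genotypes, and Arl15 was the gene with the smallest difference in wildtype. Capitals mark the motifs searched, on either strand.
Osbpl8 promoter, chr10:111164552-111164741: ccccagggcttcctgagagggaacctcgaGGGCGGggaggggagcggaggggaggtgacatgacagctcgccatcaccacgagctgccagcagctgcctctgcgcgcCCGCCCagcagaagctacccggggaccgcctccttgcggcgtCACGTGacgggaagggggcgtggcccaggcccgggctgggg
Trim23 promoter, chr13:104178589-104178796: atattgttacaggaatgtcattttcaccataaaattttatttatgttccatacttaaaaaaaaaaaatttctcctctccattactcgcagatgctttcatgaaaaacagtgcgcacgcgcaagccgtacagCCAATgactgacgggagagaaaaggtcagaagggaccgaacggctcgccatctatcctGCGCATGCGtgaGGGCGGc
Arl15 promoter, chr13:113794258-113794504: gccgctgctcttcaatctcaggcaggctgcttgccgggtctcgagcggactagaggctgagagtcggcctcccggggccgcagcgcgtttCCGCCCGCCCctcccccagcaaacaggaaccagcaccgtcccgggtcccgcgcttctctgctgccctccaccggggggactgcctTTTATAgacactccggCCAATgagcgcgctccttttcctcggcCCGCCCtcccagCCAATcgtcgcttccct

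The motifs were searched over the whole window of each gene and of 27025 genes with a window of this length. The E-box CACGTG was found once, in Osbpl8, at position -101 from the start, and is present in 7.24% of all windows. The core of the NRF1 site, GCGCATGCG, was found once, in Trim23, at position -61 (1.81% of all windows). GC boxes (GGGCGG) were in the windows of Osbpl8, Trim23 and Arl15 (35.9% of all windows), and CCAAT boxes (CCAAT) in those of Trim23, Arl15 and Serpini1 (38% of all windows). The core site of RBPJ, the DNA-binding partner of Notch (TGGGAA), was found in the window of Plppr5 alone of the 6, at position -88. It is present in 25.5% of all windows. The whole window of Plppr5 lies at or after the earliest annotated start of the gene, so this match is not upstream of every annotated start. The TATA box letters TATAAA were found in Arl15 (14.2% of all windows), and the cyclic AMP response element TGACGTCA in none of the 6 (1.85%). No motif of this set was found in all 6 windows. Their GC content ran from 49% in Spock3 to 72.7% in Osbpl8, against a median of 52.7% over all windows.

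The transcripts, in contrast to several of these windows, were poor in G and C. The GC content of the longest coding transcript was 37.3% for Spock3, 40.1% for Osbpl8, 37.4% for Trim23, 43% for Arl15, 43.5% for Plppr5 and 37.2% for Serpini1, where the median tested gene had 50%. All 6 fell in the lowest of 5 equal classes of tested genes by GC content, which ended at 44.3%. The genes were also long on the chromosome, from 24.6 kb for Trim23 to 406 kb for Spock3, and 5 of the 6, all but Trim23, lay in the class with the longest spans. Their transcript lengths, 3201 to 7204 bases, exceeded the median of 2900. Few reads of other annotated genes were assigned within them: overlapping genes held at most 0.131% of a member's own counts, which was the value for Arl15.

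Several measured properties of the libraries differed between the groups along with the 6 genes. Total counts were 16887885 to 24944681 per library. Xist, expressed from the inactive X of female cells, had 12 and 6 counts in replicate 3 of exposed wildtype and of exposed knockout and 5919 to 10767 elsewhere, so both exposed groups, and neither unexposed one, held a library lacking it. Without both libraries 5 of the 6 genes were among the 14 called of all tested genes in knockout, and Osbpl8 kept its log2 difference of -0.38 but was not called. In wildtype 1, Spock3, was among 40 called. Markers of the choroid plexus, the epithelium that makes cerebrospinal fluid, summed to 3450 to 4210 CPM over 12 genes in exposed knockout and 2470 to 2610 CPM in unexposed knockout. All 12 had positive estimates between these groups, and 0 passed the test. In wildtype the same sum was 1820 to 2790 CPM, and 1800 to 3500 CPM after exposure. Markers common to neurons summed to 5160 to 5680 CPM in exposed knockout, below the 5700 to 6080 CPM of unexposed knockout, with 9 of 12 estimates below 0 and 0 past the test. In exposed wildtype they were at 5470 to 6260 CPM against 5750 to 5900 CPM. Markers of the meninges summed to 1280 to 1690 CPM in exposed knockout and 979 to 1170 CPM in knockout, with 10 of 10 estimates above 0 (median 0.38), and were at 1070 to 1650 against 1080 to 1250 CPM in wildtype. Those of ependyma, the lining of the ventricles, were at 41.8 to 44.7 against 32.6 to 39.9 CPM in knockout, with 7 of 9 above 0. Cytosolic ribosomal protein genes were at 18000 to 20100 against 16700 to 17900 CPM in knockout, with 42 of 45 above 0, and in wildtype 37 of 45 were below 0. In these 3 lists 0 passed the test after exposure in either genotype. Markers of striatal projection neurons were also lower: 16 of 16 estimates were below 0 in exposed wildtype, where 7 passed (median -0.65), and 15 of 16 in exposed knockout, where 0 passed (median -0.27). Their sums were 2360 to 2480 CPM in wildtype, 1510 to 1710 in exposed wildtype, 1800 to 2700 in knockout and 1640 to 1990 CPM in exposed knockout. Markers of oligodendrocytes had 10 of 10 estimates below 0 in exposed wildtype (median -0.12) and 7 of 10 in exposed knockout. Those of inhibitory interneurons had 9 of 13 and 10 of 13 below 0. Astrocyte markers had 7 of 10 above 0 in exposed wildtype and 9 of 10 in exposed knockout, and microglia markers 9 of 10 and 8 of 10. Of the oligodendrocyte, interneuron, astrocyte and microglia markers 0 passed after exposure. No tested marker of these lists, or of cortical neurons, was at 0 in any library, and 1 ependyma marker was not among the tested genes. The markers of cortical and striatal projection neurons, cells of the forebrain, were thus present. Exposed knockout replicate 1 had the highest share of mitochondrial counts (18.6%, 12.2% to 16.4% elsewhere) and the lowest average of the 6 genes. Without it 2 of all tested genes were called in knockout, in place of 10, and 0 of the 6 were among them, with a median difference of -0.40 in place of -0.44. The part of these properties in the lower levels was not tested. In bulk tissue fewer cells of a type and less RNA per cell cannot be told apart.

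Per kilobase of transcript, the order of the levels in wildtype was Serpini1, Spock3, Trim23, Osbpl8, Plppr5 and Arl15. Serpini1 was at 59.7 ± 5.67 CPM per kb (mean ± SD, n = 3) and Spock3 at 43 ± 1.38. Trim23 followed at 17.8 ± 1.3 CPM per kb and Osbpl8 at 11.5 ± 0.333. Plppr5, at 8.52 to 9.55 CPM per kb, and Arl15, at 7.22 to 8.28, were the lowest and did not overlap in wildtype, but in the unexposed knockout they did, at 8.31 to 9.29 and 7.93 to 8.65 CPM per kb. The genes were well covered, with 273 to 6146 counts per library.

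In the comparison that chose them, exposed with unexposed knockout, each of the 6 genes was lower in all 3 exposed libraries than in any unexposed one. The log2 differences ran from -0.59 for Arl15 to -0.38 for Osbpl8, with a median of -0.44, where the median of all tested genes was 0.01. With GC content and length as an offset the median was -0.25 and 0 of the 6 were called, among 3 genes in all; 0 were also called without exposed knockout replicate 1. EdgeR's quasi-likelihood test with Benjamini-Hochberg adjustment called 7 genes lower, 0.0389% of those tested, and the 6 are all of these but Pde7b. No overlap between the groups in the lower direction was seen for 10.3% of the tested genes. Nothing is read from these counts, because this comparison made the choice. The member nearest the threshold of 0.05 was Serpini1, with an adjusted value of 0.0441, and the gene just beyond it was Tmem68, with 0.0593 and a log2 difference of -0.37.

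**Figure D1:**
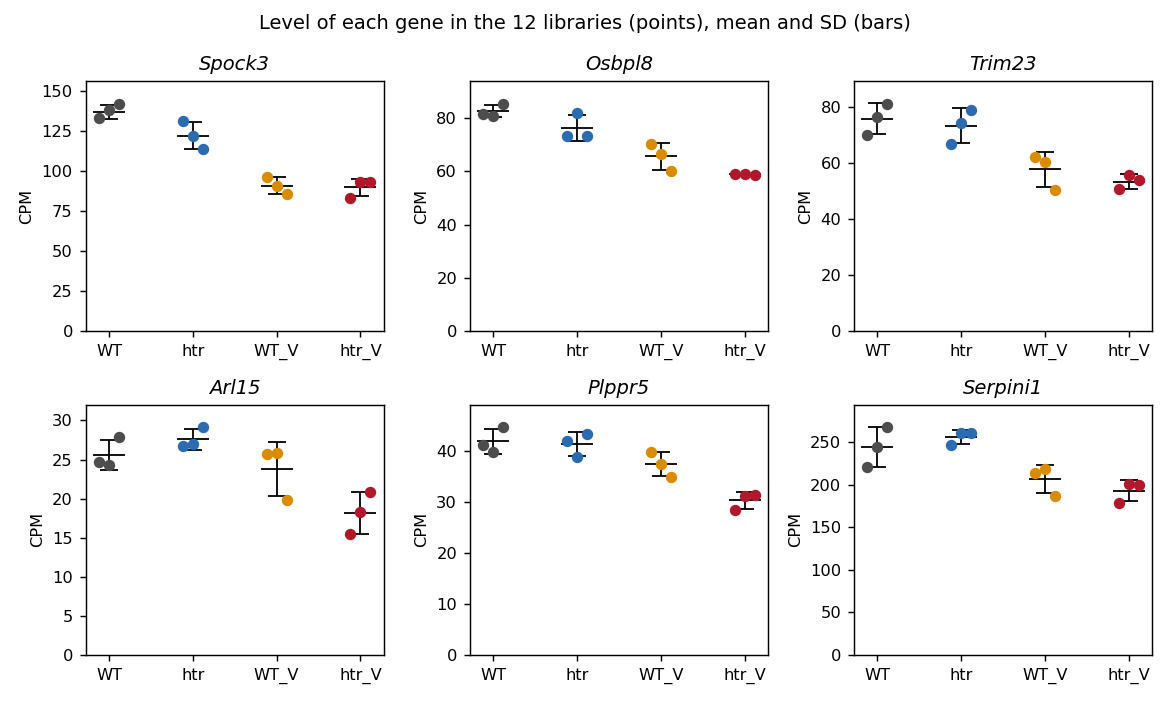
Level of each gene in CPM (vertical axes, from 0) in the 4 groups: WT, wildtype; htr, knockout; WT_V and htr_V, the same after prenatal valproic acid. Points are libraries, and bars give the mean and SD of 3; in htr_V every point lies below every htr point, while for Arl15 the WT_V points (19.8 to 25.8) overlap the WT points (24.3 to 27.9).

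Spock3, the matrix proteoglycan, was lower in both genotypes and most so in wildtype. It was at 133, 138 and 142 CPM in the wildtype libraries and at 96.2, 90.7 and 85.6 CPM in exposed wildtype. The knockout libraries had 131, 122 and 114 CPM and the exposed knockout libraries 83.4, 92.9 and 93.1 CPM. The exposed groups overlapped each other and lay below both unexposed groups. The log2 difference was -0.60 ± 0.07 (SE) in wildtype, 1.51-fold lower, and -0.44 ± 0.07 in knockout, 1.36-fold lower. Unexposed knockout was itself lower than wildtype in every library.

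Serpini1, the neuronal protease inhibitor, had the highest level per length of the 6. Its levels were 221, 244 and 267 CPM in wildtype and 213, 218 and 187 CPM in exposed wildtype. The knockout libraries had 246, 261 and 261 CPM and the exposed ones 178, 201 and 199 CPM. Exposed libraries were lower than unexposed ones of the same genotype without overlap, although in wildtype the gap between 221 and 218 CPM was smaller than the SD of either group (23.2 and 16.4 CPM). The log2 difference was -0.25 ± 0.08 in wildtype, 1.19-fold lower, and -0.41 ± 0.08 in knockout, 1.33-fold lower.

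Plppr5, the neurite membrane protein, differed little in wildtype and more in knockout. Its levels were 41.2, 39.8 and 44.6 CPM in wildtype and 39.7, 37.5 and 34.9 CPM in exposed wildtype, groups that nearly met. The knockout had 42, 38.8 and 43.4 CPM, and the exposed knockout 28.5, 31.1 and 31.4 CPM. The exposed knockout was thus below all 9 other libraries. The log2 difference was -0.16 ± 0.08 in wildtype, 1.12-fold lower, and -0.45 ± 0.08 in knockout, 1.36-fold lower.

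Osbpl8, the lipid exchanger, was lower to a like extent in both genotypes. Wildtype libraries had 81.6, 80.8 and 85.3 CPM, and exposed wildtype 70.1, 66.5 and 60.1 CPM. The knockout had 73.4, 82 and 73.3 CPM, and the exposed knockout 58.8, 58.9 and 58.5 CPM. The exposed knockout libraries lay below every other library, and their SD of 0.209 CPM was the smallest of any of the 6 genes in any group. The log2 difference was -0.33 ± 0.07 in wildtype, 1.26-fold lower, and -0.38 ± 0.07 in knockout, 1.3-fold lower.

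Trim23, the ligase with an ARF domain, was lower in both genotypes as well. Its levels were 70.0, 76.2 and 81 CPM in wildtype and 62.1, 60.2 and 50.3 CPM in exposed wildtype. The knockout libraries had 66.6, 74.2 and 78.9 CPM and the exposed knockout 50.5, 55.7 and 53.9 CPM. Both unexposed groups overlapped each other, as did both exposed groups, with a gap between exposed and unexposed libraries. The log2 difference was -0.39 ± 0.08 in wildtype, 1.31-fold lower, and -0.46 ± 0.08 in knockout, 1.37-fold lower.

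Arl15, the ARF-like GTPase, had the largest difference of the 6 in knockout and the smallest in wildtype. Wildtype libraries had 24.7, 24.3 and 27.9 CPM, and exposed wildtype 25.7, 25.8 and 19.8 CPM. The knockout had 26.7, 27 and 29.1 CPM, and the exposed knockout 15.5, 18.3 and 20.8 CPM. In wildtype the groups overlapped, and exposed replicate 3 was the one low library: the difference was -0.10 ± 0.11 with it and 0.01 ± 0.11 without it. In knockout the difference was -0.59 ± 0.11, 1.51-fold lower, and stayed between -0.70 and -0.50 when any one library was left out.

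**Figure D2:**
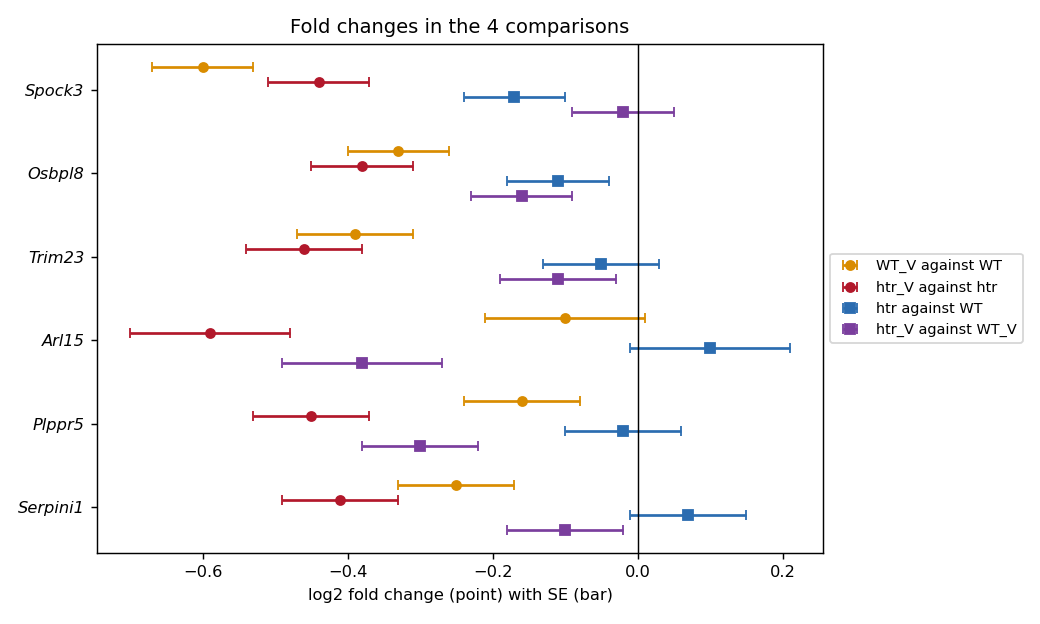
Log2 fold change (horizontal axis) of the 6 genes in the 4 comparisons, with points for the estimates and bars for the SE. Spock3, Osbpl8 and Trim23 have both comparisons of exposure (circles) below -0.3, while Arl15, Plppr5 and Serpini1 have only the knockout circle there; the squares for genotype lie between -0.38 and 0.10.

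In wildtype alone, 3 of the 6 genes passed the same test as lower after exposure, Spock3, Osbpl8 and Trim23, where 0.689% of tested genes did, and 5 of 6 had no overlap in that direction, where 10.9% of tested genes did. Nothing is read from these counts either, since lower levels in wildtype also entered the choice. The median over the 6 was -0.29 in wildtype, beside 0.01 for all tested genes. The difference between genotypes in the effect of exposure was estimated for each gene but not tested, for the same reason. It was -0.49 ± 0.15 for Arl15 and -0.28 ± 0.11 for Plppr5, both lower in knockout, and -0.16 ± 0.11 for Serpini1. For Trim23 and Osbpl8 it was -0.06 ± 0.12 and -0.04 ± 0.10, each smaller than its SE, and for Spock3 it was 0.15 ± 0.10, the other way.

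Whether the deletion by itself changed these genes was asked by comparing unexposed knockout with wildtype. Unexposed knockout was the reference of the comparison that chose the genes, so genes high in it were favoured. The values below therefore describe the groups and do not decide the question. By edgeR's quasi-likelihood test, adjusted by Benjamini-Hochberg over 17995 genes, 0 of the 6 passed, where 0.0389% of genes were called in either direction. At an unadjusted p under 0.05 by edgeR there was 1, Spock3, where 3.13% of all tested genes were under it. DESeq2 called 0 of the 6, and 8 of all tested genes. Spock3 was 1.13-fold lower in knockout (log2 -0.17 ± 0.07, 95% interval -0.31 to -0.03, adjusted p = 1 by edgeR), without overlap in 3 against 3 libraries, which 3.81% of tested genes showed in that direction. In the same comparison 16 of 16 markers of striatal projection neurons were below 0 (median -0.18), and 0 passed. Between the exposed genotypes 15 of 16 were above 0 (median 0.16), and 0 passed. The part of these neurons in the difference of Spock3 was not tested. For the members other than Spock3 the interval of the log2 difference included 0. It ran from -0.25 to 0.02 for Osbpl8, -0.21 to 0.11 for Trim23, -0.11 to 0.31 for Arl15, -0.17 to 0.13 for Plppr5 and -0.09 to 0.22 for Serpini1.

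Exposed knockout was then compared with exposed wildtype. None of the 6 passed the same edgeR test, which called 0.05% of tested genes in either direction, and DESeq2 called 0 of the 6. At an unadjusted p under 0.05 by edgeR there were 3, where 7.44% of all tested genes were under it. All 6 estimates were below 0 (median -0.14, beside 0.00 for all tested genes), which the choice of genes low in exposed knockout favours. With GC content and length as an offset the median was -0.04: Arl15 was at -0.34 and Plppr5 at -0.24, while Osbpl8 was at -0.05, Trim23 at -0.03, Serpini1 at -0.02 and Spock3 at 0.03. Arl15 was 1.3-fold lower (log2 -0.38 ± 0.11, interval -0.60 to -0.17, adjusted p = 0.41 by edgeR), and its groups overlapped. Plppr5 was 1.23-fold lower (log2 -0.30 ± 0.08, interval -0.46 to -0.15, adjusted p = 0.352 by edgeR) and Osbpl8 1.12-fold lower (log2 -0.16 ± 0.07, adjusted p = 0.605 by edgeR), each without overlap, as for 6.23% of tested genes in that direction. The interval of Spock3 was -0.15 to 0.12 (log2 -0.02 ± 0.07), and the intervals of Trim23 (-0.27 to 0.05) and Serpini1 (-0.25 to 0.06) also included 0. Without exposed wildtype replicate 3, Arl15 passed (log2 -0.50 ± 0.11, adjusted p = 0.0316 by edgeR), and over its alternatives the adjusted p ran from 0.0191 to 0.999. Marker lists also differed between the exposed genotypes. Markers common to neurons had 12 of 12 estimates below 0 (median -0.12), and 0 passed. Those of the choroid plexus had 12 of 12 above 0 (median 0.60), and 1 passed. Cytosolic ribosomal protein genes had 45 of 45 above 0 (median 0.21), and 0 passed. The part of these differences in the levels of the 6 genes was not tested.

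The GC content of the transcript moved most clearly with the knockout comparison. In the class with the lowest GC content, which holds all 6 genes, 75% of 3536 genes were below 0 in exposed against unexposed knockout, with a median of -0.13. The medians rose through -0.05, 0.01 and 0.06 to 0.12 in the class with the highest GC content, where 22.3% of genes were below 0. In wildtype the lowest class had a median of -0.05 with 60.5% below 0, and the highest 0.03 with 40.8%. Between exposed knockout and exposed wildtype the lowest class had a median of -0.05 with 64.2% below 0, and the highest 0.06 with 33.4%. Between the unexposed genotypes the order was the other way, at 0.01 with 45.1% and -0.03 with 60.7%. Classes by transcript length had medians of 0.00 in the shortest and 0.01 in the longest in knockout. In wildtype the medians by length ran from -0.08 in the shortest class, with 63% below 0, to 0.06 in the longest, with 33.2%. Between exposed knockout and exposed wildtype they ran from 0.09 to -0.05. The 5th percentile of the lowest class in knockout was -0.48. Since the 6 genes were chosen as low in this comparison, their place below the median of their class was fixed by the choice. With GC content and transcript length entered as an offset in the fit, the differences in knockout were -0.25 ± 0.07 for Spock3, -0.24 ± 0.06 for Osbpl8, -0.26 ± 0.07 for Trim23, -0.48 ± 0.10 for Arl15, -0.35 ± 0.07 for Plppr5 and -0.21 ± 0.07 for Serpini1. All 6 stayed below 0, and 0 of the 6 passed the test. In wildtype the offset left Spock3 at -0.46 ± 0.07 and Osbpl8 at -0.32 ± 0.06, both past the test. Trim23, at -0.29 ± 0.07, no longer passed. Lower levels in wildtype also entered the choice, so nothing is read from which genes passed. Serpini1 moved from -0.25 to -0.14 ± 0.07 and Arl15 from -0.10 to -0.04 ± 0.10, and Plppr5 was at -0.15 ± 0.07.

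**Figure D3:**
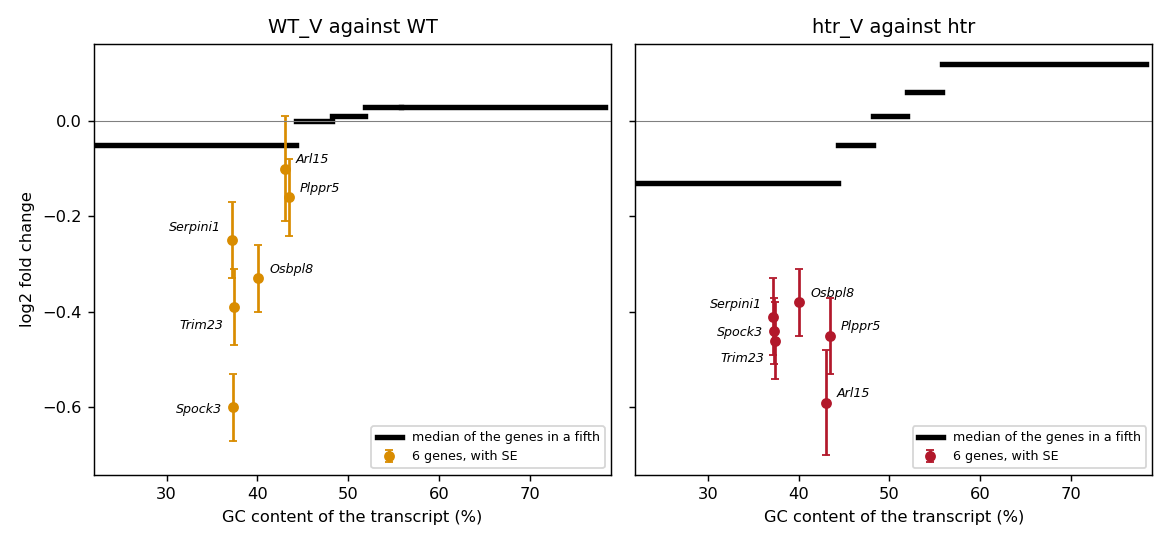
Log2 fold change after exposure (vertical axis) in wildtype (left) and knockout (right) against the GC content of the transcript in percent (horizontal axis). Black lines are medians of all tested genes in 5 equal classes, which run from -0.13 to 0.12 in knockout; coloured points with SE bars are the 6 genes, all in the lowest class and below its line, as their choice fixed in knockout.

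Genes whose levels followed each member most closely were found by the root mean square (RMS) difference of log2 CPM over the 12 libraries, after each gene was centred on its own mean, among 13671 other named genes of at least 1 CPM. These genes share the libraries and their depth, so the likeness is a description. Spock3 was followed by Pde7b, a cyclic AMP phosphodiesterase (RMS 0.044), then by Foxp2, a transcription factor of striatal and deep cortical neurons (0.098), and Neto2, an auxiliary subunit of kainate receptors (0.099); Spock3 itself varied by 0.276 about its mean. Pde7b was at 45.2 CPM in wildtype, 41.8 in knockout and 31.1 and 29.9 CPM after exposure, the same order of groups as Spock3. Trim23 was followed by Mob4, part of the striatin phosphatase complex (RMS 0.055), Adgrl4, an adhesion receptor of endothelium (0.067), and Snx16, a sorting nexin (0.074). Osbpl8 was followed by Fyttd1, an mRNA export factor (0.062), Dck, deoxycytidine kinase (0.074), and Neto2 (0.077).

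Serpini1 was nearest to Actr10, a dynactin subunit (RMS 0.054), Trappc2, part of a vesicle tethering complex (0.056), and Itfg1 (0.057). Plppr5 was nearest to Chm, the Rab escort protein (0.072), Dck (0.076) and Exoc6, a subunit of the exocyst (0.078). The nearest to Arl15 were Clvs2 (0.095), the synaptic adhesion gene Lrrtm2 (0.114) and Chm (0.115). Among the 6 themselves, Serpini1 and Trim23 were most alike (RMS 0.079), followed by Osbpl8 and Trim23 (0.091), and Arl15 and Spock3 least alike (0.213). Only 1 of the 13671 other genes, Clvs2, was nearer to Arl15 than Plppr5 was (0.105).

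The closest relatives and partners of the 6 genes were read beside them. The other testicans, Spock1 and Spock2, had log2 differences of -0.02 ± 0.08 and 0.03 ± 0.07 in knockout and 0.22 ± 0.08 and 0.19 ± 0.07 in wildtype after exposure. Of the 7 tested genes of the testican and SPARC family besides Spock3, 0 passed in any of the 4 comparisons (median 0.03 in knockout and 0.02 in wildtype). Of the 11 other oxysterol-binding proteins 0 passed in any of the 4 (median -0.02 in knockout and 0.09 in wildtype), and Osbpl5, the closest relative of Osbpl8, stood at 0.28 ± 0.10 in knockout. The 16 tested genes of contacts between endoplasmic reticulum and plasma membrane had a median of 0.06 in knockout and 0.04 in wildtype, again with 0 past the test.

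Among the 25 other ARF and ARL GTPases, 1 fell in exposed wildtype, Sar1b, which starts the coat of vesicles leaving the endoplasmic reticulum (log2 -0.34 ± 0.07, adjusted p = 0.0164 by edgeR, 76.2 against 96.6 CPM). In exposed knockout 0 passed (median -0.05). Arf6, which acts at the plasma membrane, was at 0.19 ± 0.10 in knockout and -0.01 ± 0.10 in wildtype. Of 15 exchange factors that load ARF proteins with GTP, Cyth4 rose in exposed wildtype (log2 0.42 ± 0.10, adjusted p = 0.0431 by edgeR), and 0 passed in knockout. None of 27 other TRIM ligases passed in any of the 4 comparisons (median 0.03 in knockout), nor did any of the 12 genes of CNNM magnesium transport (0.06). Of 15 genes of TBK1-dependent autophagy, in which Trim23 acts, Gabarapl2, a protein of the autophagosome membrane, fell in exposed wildtype (log2 -0.33 ± 0.08, adjusted p = 0.0345 by edgeR) and 0 passed in knockout (median -0.06).

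Of 18 other genes of the lipid phosphatase-related family and lysophosphatidic acid signalling, 0 passed in any comparison (median -0.05 in knockout and -0.01 in wildtype). Plppr4, the neighbour of Plppr5 on chromosome 3 and a synaptic member of its family, was at 175 CPM in wildtype, 177 in knockout and 164 and 146 CPM after exposure. Its difference was -0.27 ± 0.08 in knockout (adjusted p = 0.118 by edgeR) and -0.09 ± 0.08 in wildtype. Plppr1 stood at -0.31 ± 0.18 in knockout and -0.40 ± 0.18 in wildtype, with a wide error at its level of about 9 to 12 CPM. Of 10 other plasminogen activator genes and inhibitors 0 passed. Plat, the tissue plasminogen activator that Serpini1 blocks, was at -0.07 ± 0.08 in knockout and 0.03 ± 0.08 in wildtype, and Serpine2, another inhibitor of it, at 0.02 ± 0.09 and 0.06 ± 0.09.

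Neighbours along the chromosome were read to see whether whole stretches moved. The neighbour before Serpini1, Pdcd10, which encodes a protein of the endothelial cerebral cavernous malformation complex, is on the opposite strand, and in human the pair is known to share a promoter region. It fell in exposed wildtype (log2 -0.40 ± 0.08, adjusted p = 0.0141 by edgeR) to 42.9 from 56.7 CPM and stood at -0.33 ± 0.08 in knockout (adjusted p = 0.0637 by edgeR). Ndufs4, a subunit of respiratory complex I beside Arl15, also fell in exposed wildtype (log2 -0.36 ± 0.07, adjusted p = 0.0123 by edgeR), where Arl15 stood at -0.10, and was at -0.15 ± 0.07 in knockout. The neighbours of Trim23, Trappc13 and Ppwd1, stood at -0.19 ± 0.08 and -0.27 ± 0.17 in knockout, and those of Osbpl8, Zdhhc17 and Bbs10, at -0.14 ± 0.07 and -0.01 ± 0.19. Every neighbour but Ddx60 had an estimate below 0 in knockout, as did 48.2% of all tested genes. Ddx60, beside Spock3, stood at 0.68 ± 0.42 there, at under 1 CPM. Tll1, on the other side of Spock3, stood at -0.41 ± 0.24 in knockout and -0.41 ± 0.23 in wildtype. Hspb3, beside Arl15, was at -0.35 ± 0.31 and 0.14 ± 0.31, and Snx7, beside Plppr5, at -0.07 ± 0.10 and -0.14 ± 0.10. Golim4, beside Serpini1, was at -0.07 ± 0.10 in knockout and 0.26 ± 0.10 in wildtype. Of the 12 neighbours, 2 passed in wildtype, where 0.895% of all tested genes did, and 0 in knockout, where 0.0556% did.

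**Figure D4:**
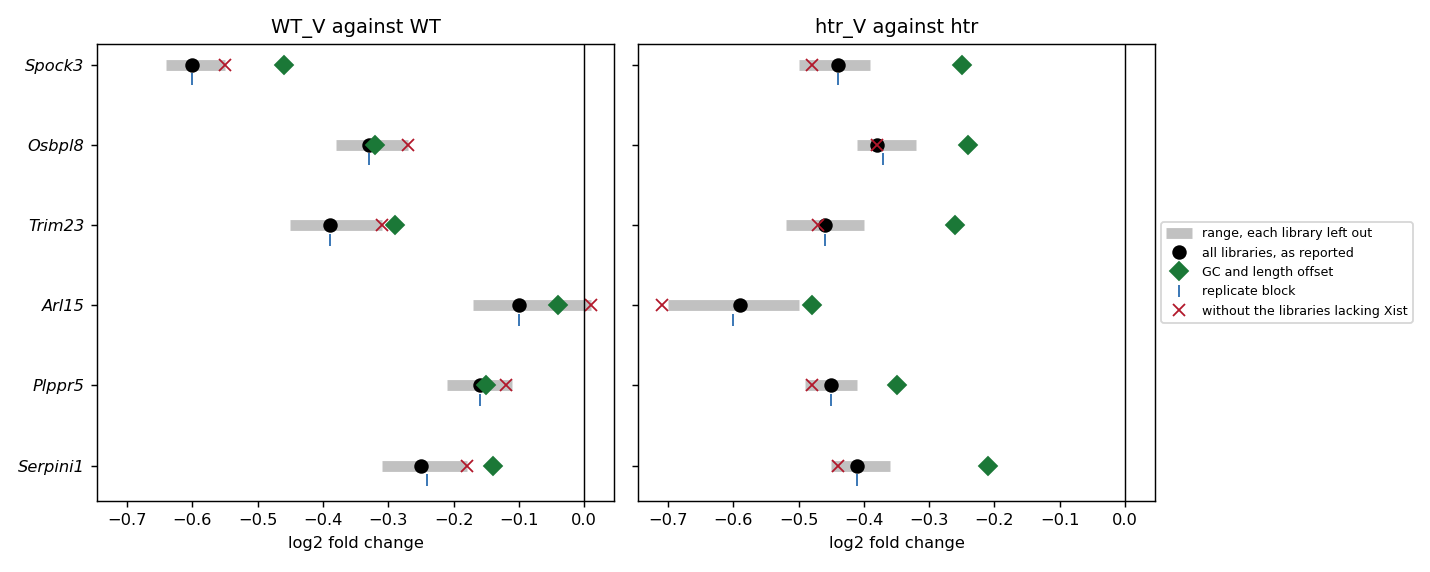
Log2 fold change after exposure (horizontal axis) of the 6 genes in wildtype (left) and knockout (right) under the reported fit (circles), with GC content and length as an offset (diamonds), with the replicate number as a block (ticks), without the libraries lacking Xist (crosses), and over the range with each library left out (grey bars). The diamonds lie nearest 0 in knockout, at -0.48 to -0.21, and all values there are below 0, which the choice of the genes favoured.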

How the data were processed

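Per the labels' protocols, total RNA was depleted of ribosomal RNA and made into libraries with an NEBNext Ultra kit. Per the submitters' processing notes, HISAT2 and the mouse build GRCm39 (mm39) were used. No source used here gives versions, the counting program, the annotation or whether counting used strand. The authors deposited raw counts per Ensembl gene for 56748 genes, whole numbers with no normalisation. Symbols, GC content (longest coding transcript) and gene order came from GENCODE M21 on the earlier build GRCm38, and matched 52073 identifiers; promoter sequences came from RefSeq. Genes were kept by filterByExpr (17995) and scaled by TMM (factors 0.93 to 1.02). A mean per group was fitted to the 12 libraries with edgeR 4.0.16 (robust quasi-likelihood test, Benjamini-Hochberg adjusted p under 0.05) in R 4.3.3, with limma 3.58.1 and DESeq2 1.42.0; tables and figures used Python 3.11.15. The fits were tested on simulated data. Log2 CPM had a prior count of 2.

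The members, the lists of related genes, the motifs, the other settings and the rule for naming genes were chosen with earlier results of these data known. The rule names the 6 genes, the 3 genes most like each in level, the nearest tested protein-coding gene on each side, named relatives, and up to 4 genes of a list past the test. Intervals are normal 95% intervals from the SE. Replicate numbers are shared between groups, but what they mark is not given.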

Additional observations from a re-analysis of the deposited data

How the results depend on the processing

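The lower levels after exposure kept their direction for all 6 genes in knockout under every setting tried, but not their calls. Every setting refits the counts that chose the genes, so the choice favoured the kept direction, and nothing is read from it. Of 114 values there, 70 kept their side of the threshold and 44 lost it. Members called in knockout were 6 as reported, 0 with the GC and length offset (median log2 difference -0.25) and 0 to 6 with each library left out: 0 without exposed knockout replicate 1, 1 without its replicate 2 or without knockout replicate 3, 2 without exposed knockout replicate 3 or knockout replicate 2, and 3 without knockout replicate 1. In wildtype, leaving out a library gave 1 to 3 members called, with 1 without wildtype replicate 2 or 3 or exposed wildtype replicate 3, and 1 without the libraries lacking Xist. Knockout against wildtype had 0 in each setting; after exposure 1, Arl15, was called without the low-count filter, without the libraries lacking Xist and without exposed wildtype replicate 3, and 0 with any other library left out. The median over the members with each library left out stayed within -0.47 to -0.40 in knockout and -0.33 to -0.23 in wildtype.

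Over all genes, calls after exposure in knockout were 10 as reported, 391 without the low-count filter, 193 with DESeq2, 38 with only the compared groups fitted, 3 with the offset, and 2 (without exposed knockout replicate 1) to 162 (without exposed wildtype replicate 3) with each library left out. In wildtype they were 161 as reported, 512 without the filter, 333 with DESeq2, 63 with the offset, 40 without the libraries lacking Xist, and 14 (without wildtype replicate 3) to 225 with each library left out. Knockout against wildtype gave 7 as reported, 15 without the filter, 11 with only the compared groups, and 6 to 9 with each library left out. After exposure it gave 9 as reported, 60 without the filter, 25 with DESeq2, 29 without the libraries lacking Xist, and 7 to 86 (without exposed wildtype replicate 3) with each library left out. The causes were not tested.

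Directions turned only for estimates near 0. Arl15 in exposed wildtype ran from -0.17 to 0.01 with each library left out and was 0.01 without the libraries lacking Xist. In unexposed knockout against wildtype, Trim23 ran from -0.10 to 0.02 (0.00 without wildtype replicate 3, 0.02 without knockout replicate 1) and Plppr5 from -0.05 to 0.03 (0.03 without wildtype replicate 3 or knockout replicate 2). In exposed knockout against exposed wildtype, Spock3 ran from -0.06 to 0.03 (0.03 without exposed wildtype or exposed knockout replicate 1) and was 0.03 with the offset.

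With the replicate number as a block, 1 member, Spock3, was called in knockout, 3 in wildtype and 0 in both comparisons of genotype, and over all genes 6 and 115 were called after exposure in knockout and wildtype, and 6 and 12 between genotypes. Whether the numbers pair the libraries could not be decided from so few libraries. Deviations from the group means correlated at -0.062 to 0.115 between libraries of the same number and at -0.123 to 0.112 between others. Between unexposed wildtype and unexposed knockout, pairs of the same number were at 0.063, 0.088 and 0.115. These were above the pairs of different numbers, at -0.099 to 0.019. No other pair of groups showed this order. With 3 libraries a group, an effect of the size of these errors could not be resolved.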
